A study of Mus musculus with 14 samples.

Results

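The cells described here were Lgr5 and Olfm4 positive cells of control mouse intestinal organoids in which no transcript of the proliferation genes Mki67 and Top2a was counted. They were chosen by their own counts: at least 500 genes, at least 1000 unique molecular identifiers (UMIs, counted RNA molecules) and at most 20% mitochondrial UMIs per cell, at least 2 UMIs of Lgr5, at least 5 UMIs of Olfm4 and 0 UMIs of Mki67 and Top2a. Of 27324 kept cells of the 3 control libraries, 2303 (8.43%) met the rule. A further 7378 cells had the same Lgr5 and Olfm4 counts together with at least 1 UMI of Mki67 or Top2a, so the chosen cells made up 23.8% of the 9681 Lgr5 Olfm4 cells. They carried stem cell transcripts, and fewer G2/M transcripts than Lgr5 Olfm4 cells with Mki67 or Top2a, but they also carried many transcripts of DNA replication genes. They are therefore called Mki67- Top2a- stem cells below, in place of the label non-cycling.

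Lgr5 is a receptor for R-spondins that raises Wnt signalling, and Olfm4 is a secreted protein; both mark the stem cells at the base of the intestinal crypt. These stem cells divide often, under Wnt and Notch signals, and their daughters become absorptive enterocytes or secretory cells (Paneth, goblet, tuft and hormone-producing enteroendocrine cells). Mki67 and Top2a transcripts accumulate from S phase to mitosis and are low in G1 and in cells that have left the cycle.

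The study grew mouse intestinal organoids, which are epithelial cultures that grow from stem cells, in ENR medium, which supplies EGF, Noggin and R-spondin1, and measured whole organoids by droplet single-cell RNA-seq, with 1 library per condition. The control libraries were Chgb-mCherry knock-in reporter organoids given 0.05% DMSO for 6 days (here DMSO), the same reporter organoids untreated (here Chgb-mCherry), and untreated wild-type organoids (WT). Another library held reporter organoids given 25 µM Isx-9, a small molecule that according to the title of the series induces enteroendocrine differentiation, for 6 days. For bulk RNA-seq, Lgr5-EGFP knock-in organoids were given Isx-9 or DMSO for 6 hours and their stem cells were sorted, with 2 libraries each. All organoids shared the ENR medium, the reporter organoids carried a fluorescent protein gene knocked into Chgb, and the sorted cells carried one at Lgr5. Whether the libraries came from separate cultures is not said in the labels, so a p-value reflects the spread among these libraries alone, which may be technical.

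Kept cells numbered 8969 in DMSO, 9610 in Chgb-mCherry and 8745 in WT, and 10016 in the Isx-9 library. The Mki67- Top2a- stem cells held medians of 13230, 12619 and 14999.5 UMIs in DMSO, Chgb-mCherry and WT. The Lgr5 Olfm4 cells with Mki67 or Top2a were deeper, at medians of 18565.5, 17686 and 21128 UMIs, and all other kept cells lay at 13431, 12637 and 15010. Mitochondrial UMIs took a median of 7.04%, 6.88% and 6.64% of the Mki67- Top2a- stem cells. Pairs of libraries shared 32 to 52 cell barcodes, none of them a chosen cell in both. A doublet caller marked 1, 1 and 2 kept cells in DMSO, Chgb-mCherry and WT, so few that it cannot be taken to have worked, and no other removal of doublets was made. Whether the depositors had already taken doublets out is not stated in the labels.

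The Mki67- Top2a- stem cells made up between 7.36% and 9.70% of the kept cells of a control library. They were 870 of 8969 kept cells in DMSO (9.70%, exact 95% binomial interval 9.10% to 10.3%), 707 of 9610 in Chgb-mCherry (7.36%, 6.84% to 7.90%) and 726 of 8745 in WT (8.30%, 7.73% to 8.90%). The intervals cover counting error only, and with 1 library per condition the shares could not be tested against each other. The highest share was in DMSO and the lowest in the untreated organoids of the same reporter genotype.

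Lgr5 and Olfm4 chose the cells, so their levels describe the choice and were not tested. Lgr5 had a median of 3, 3 and 4 UMIs per Mki67- Top2a- stem cell in DMSO, Chgb-mCherry and WT, and at most 14, 12 and 19. Olfm4 was far more abundant per cell, at medians of 49, 41 and 42 UMIs and at most 309, 196 and 210, so the cells ran over a wide range of Olfm4. Cells that had exactly 2 Lgr5 UMIs, just inside the rule, held 233, 222 and 206 CPM (counts scaled to the total of the class) of Smoc2, a secreted matrix protein of stem cells, while cells with 1 Lgr5 UMI, just outside it, held 237, 204 and 173. Ascl2, a Wnt-driven transcription factor that specifies these stem cells, stood at 39.1, 42.2 and 54.9 CPM just inside and at 36.4, 41.6 and 50.4 just outside. Cells with exactly 1 UMI of Mki67 and Top2a together, just outside the rule on the other side, held 50.0, 50.6 and 68.7 CPM of Ascl2. Cells with exactly 5 Olfm4 UMIs, just inside, held 224, 197 and 197 CPM of Smoc2, and cells with 4, just outside, held 202, 156 and 155. There Ascl2 stood at 28.4, 33.6 and 55.1 CPM just inside and at 14.1, 25.2 and 32.0 just outside, on 19 to 28 cells per set and library. Smoc2 and Ascl2 were thus counted on both sides of each threshold. Ascl2 was lower just below the Olfm4 threshold in each library, but so few cells hold few Ascl2 UMIs, and no finding is drawn. A count of 0 for Mki67 and Top2a also depends on how deeply a cell was read, and the chosen cells were shallower than the Lgr5 Olfm4 cells with either transcript; the part of depth in that choice was not tested.

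These cells were compared with 3 sets of cells. Counts were summed per library over the Mki67- Top2a- stem cells, over all other kept cells (which include the Lgr5 Olfm4 cells with Mki67 or Top2a) and over the Lgr5 Olfm4 cells with Mki67 or Top2a, and tested with library as a block (quasi-likelihood test of edgeR, p adjusted by Benjamini-Hochberg, threshold 0.05). Against all other kept cells, 2681 of 14338 tested genes were higher in the Mki67- Top2a- stem cells (18.7%) and 3033 were lower (21.2%). Against the Lgr5 Olfm4 cells with Mki67 or Top2a, 2278 of 12805 were higher (17.8%) and 2423 were lower (18.9%), so 48.5% of the calls were higher; DESeq2 called 888 and 1505, 37.1% of them higher. A comparison added after the data were seen used only the other kept cells that also had 0 UMIs of Mki67 and Top2a, 3098 in DMSO, 3317 in Chgb-mCherry and 3256 in WT; there 4208 of 13197 genes were higher (31.9%) and 4479 lower (33.9%). The rule chose the cells from the same counts, so these calls describe the chosen cells and are no independent support for what they are. Higher and lower below mean past this threshold, on CPM that are not corrected for gene length.

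The stem cell list held 24 genes beside Lgr5 and Olfm4. Of these 24, 22 were higher in the Mki67- Top2a- stem cells than in all other kept cells and none lower. Of all tested genes 18.7% were higher and 21.2% lower. The median log2 fold change of the list was 0.63 beside -0.00 over all tested genes. Smoc2 stood at 255, 250 and 234 CPM in the Mki67- Top2a- stem cells of DMSO, Chgb-mCherry and WT, against 195, 188 and 167 in the other cells (log2 fold change 0.51, SE 0.03). Ascl2 stood at 45.1, 46.3 and 61.0 CPM against 34.1, 32.2 and 49.1 (0.49, SE 0.05). In every library the Mki67- Top2a- stem cells were above the other cells of that library, though for Ascl2 the values of the groups overlapped between libraries.

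Further stem genes showed wider gaps. Gkn3, a gastrokine expressed by stem cells, had 64.0, 61.8 and 41.7 CPM in the Mki67- Top2a- stem cells and 26.9, 24.7 and 20.2 in the other cells (log2 fold change 1.30, SE 0.05). Slc12a2, a sodium, potassium and chloride cotransporter of crypt base cells, had 518, 524 and 543 CPM against 336, 322 and 348 (0.74, SE 0.03). Cdca7, a DNA-binding protein that recruits the chromatin remodeller Hells, had 148, 140 and 150 CPM against 91.7, 79.7 and 91.8 (0.83, SE 0.04). For these genes no library of the other cells reached any library of the Mki67- Top2a- stem cells. The genes of the list that were not called were Tnfrsf19, a receptor of the tumour necrosis factor family (1.79, 1.99 and 1.70 CPM; log2 fold change 0.63, SE 0.24), and Fstl1, a secreted glycoprotein (1.11, 0.886 and 0.0896 CPM; 0.60, SE 0.41), both near the limit of detection. Against other cells that likewise lacked Mki67 and Top2a, 23 of the 24 genes were higher, with a median of 1.41. There 31.9% of all tested genes were higher.

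Set against the Lgr5 Olfm4 cells with Mki67 or Top2a, the same list differed less. There 16 of 24 genes were higher and 1 was lower, beside 17.8% and 18.9% of all tested genes. The median was 0.21 beside 0.03 over all tested genes. Rnf43, which removes Wnt receptors from the surface, had 52.8, 52.1 and 52.5 CPM in the Mki67- Top2a- stem cells and 40.3, 38.7 and 44.2 in those with Mki67 or Top2a (0.38). Cdk6, a kinase that drives cells through G1, had 125, 115 and 132 CPM against 99.5, 95.8 and 104 (0.34), and Slc12a2 differed by 0.33 (SE 0.02). For these genes every library of the Mki67- Top2a- stem cells was above every library of the comparison cells. Ascl2 was the exception, with 45.1, 46.3 and 61.0 CPM against 50.6, 48.4 and 71.7 (-0.14, SE 0.04), but this call was lost without the DMSO or without the WT library. The calls of Smoc2 (0.07) and Rgmb (0.13), a coreceptor of bone morphogenetic proteins, were lost without DMSO or without Chgb-mCherry, that of Znrf3 (0.24), a relative of Rnf43, without DMSO, and that of Aqp4 (0.14), a water channel, without Chgb-mCherry.

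**Figure D1:**
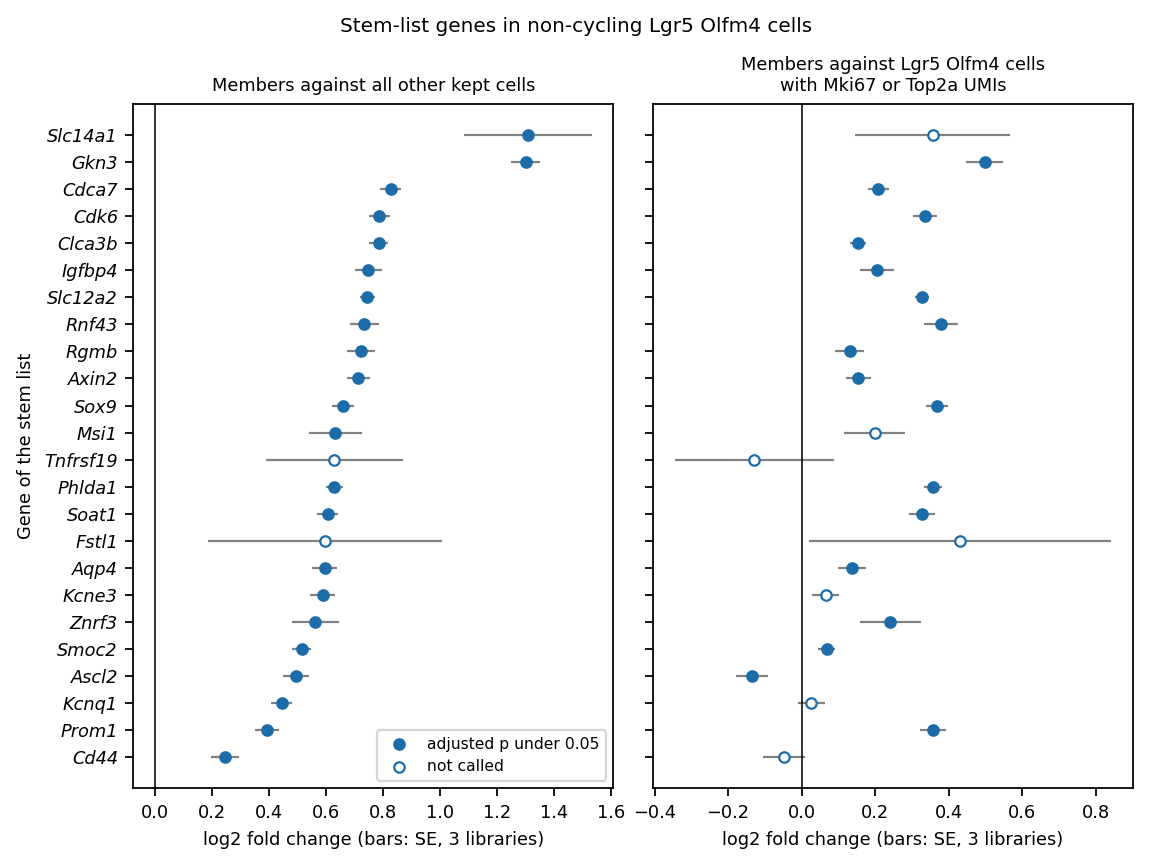
Log2 fold change of the 24 stem list genes in Mki67- Top2a- stem cells (members) against all other kept cells (left) and against Lgr5 Olfm4 cells with Mki67 or Top2a (right); bars are standard errors over 3 libraries and filled points passed an adjusted p under 0.05. All points lie to the right of 0 in the left panel, 22 of them filled, while in the right panel they lie closer to 0 and Ascl2 is the filled point on the left of it.

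A second list held 5 genes of quiescent or reserve stem cells. Of these, 4 were higher than in all other kept cells (median 0.41) and 3 were higher than in the Lgr5 Olfm4 cells with Mki67 or Top2a (median 0.19). Of all tested genes, 18.7% and 17.8% were higher in these comparisons. Hopx, a homeodomain protein of slowly dividing intestinal stem cells, had 273, 262 and 259 CPM in the Mki67- Top2a- stem cells and differed by 0.18 against all other kept cells and by 0.19 against the cells with Mki67 or Top2a, and was not called against the other cells without Mki67 and Top2a (-0.02). Mex3a, an RNA-binding protein of slowly dividing Lgr5 cells, differed by 0.57 and 0.38, and Tert, the telomerase enzyme, by 0.62 and 0.50. Lrig1, which restrains epidermal growth factor receptors, differed by 0.41 against all other kept cells, and Bmi1, a Polycomb protein, was not called there (0.21).

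Among Wnt pathway genes, 13 of 26 tested were higher and 2 lower than in all other kept cells (median 0.20), beside 18.7% and 21.2% of all tested genes. The targets led. Sp5, a transcription factor induced by beta-catenin, had 30.6, 29.4 and 37.9 CPM in the Mki67- Top2a- stem cells and 16.1, 14.0 and 21.1 in the other cells (1.02), and its groups did not overlap. Axin2, a negative feedback target, had 108, 95.1 and 114 CPM against 66.7, 60.2 and 78.9 (0.71, SE 0.04), again with no overlap. Myc differed by 0.65, the transcription factor Tcf7 by 0.62 and Ccnd1, cyclin D1, by 0.53. Of the core machinery, Ctnnb1, which encodes beta-catenin (0.08), Apc of its destruction complex (-0.11) and the coreceptor Lrp6 (0.01) were not called, and the receptor Fzd5 (-0.32) and the transcription factor Tcf7l2 (-0.12) were lower. Against the Lgr5 Olfm4 cells with Mki67 or Top2a, 10 of 24 were higher and 3 lower (median 0.08). Of all tested genes 17.8% were higher and 18.9% lower there. In that comparison Nkd1, an inhibitor that Wnt signalling induces, differed by 0.81 and Sp5 by 0.37.

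Of 10 Notch pathway genes tested, 2 were higher and 1 lower than in all other kept cells (median 0.04). Of all tested genes 18.7% were higher and 21.2% lower, so the list as a whole did not stand out upward. Hes1, the repressor through which Notch blocks the secretory fate, had 150, 136 and 133 CPM in the Mki67- Top2a- stem cells and 105, 99.4 and 96.9 in the other cells (0.56), with no overlap. The receptor Notch1 differed by 0.24. Against the cells with Mki67 or Top2a, Hes1 was higher by 0.18, while Notch1 (-0.19) and Nrarp, a feedback inhibitor of Notch (-0.47), were lower. Secretory progenitor genes went the other way from Hes1 against all other kept cells, with 7 of 12 lower and 2 higher (median -0.88). Atoh1, which commits cells to secretory fates, had 5.03, 5.76 and 7.88 CPM against 12, 12 and 19.3 (-1.13), and Neurog3, which commits them to the enteroendocrine fate, had 1.79, 5.54 and 9.94 CPM against 24.7, 24.4 and 22.3 (-1.97). Neurog3 varied over libraries of the Mki67- Top2a- stem cells, but each was below the other cells. Against the cells with Mki67 or Top2a, 4 of the 12 were higher and none lower, beside 17.8% and 18.9% of all tested genes. The Notch ligand Dll1, which secretory progenitors display, had 11.6, 13.7 and 12.2 CPM against 9.15, 6.78 and 7.34 (0.70), and Atoh1 differed by 0.37. With cells thinned to 5000 UMIs, Dll1 was counted in 5.54%, 6.12% and 5.30% of the Mki67- Top2a- stem cells. It was counted in 4.52%, 3.64% and 1.27% of cells with at least 3 UMIs of the enterocyte gene Alpi and none of Lgr5. These are called Alpi cells below, a class chosen after the data were seen. The part of free RNA in these shares was not tested.

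Of 16 tested genes of the bone morphogenetic protein and Id list, 7 were lower and 2 higher than in all other kept cells (median -0.14). Of all tested genes 21.2% were lower and 18.7% higher. Id1, an inhibitor of differentiation factors that these proteins induce, had 15.9, 19.0 and 27.0 CPM in the Mki67- Top2a- stem cells and 26.4, 27.2 and 53.3 in the other cells (-0.69), and Id3 differed by -0.87. Of 17 epidermal growth factor receptor and ERK genes tested, 3 were higher and 4 lower (median 0.01), shares near the 18.7% and 21.2% of all tested genes. Areg, the ligand amphiregulin, had 33.0, 22.7 and 34.6 CPM against 78.0, 65.7 and 122 (-1.45), with no overlap, although it was higher than in the cells with Mki67 or Top2a (0.51); Spry1, a feedback inhibitor, differed by 0.64 against all other kept cells and the ligand Hbegf by 0.31. Of 11 Eph and ephrin genes, which sort crypt cells by position, 4 were higher and 1 lower (median 0.01), beside the same shares of all tested genes. Efna4 was at 0.55 and Efnb2 at -0.59.

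Among genes with at least 50 CPM, the 12 with the largest positive fold changes against all other kept cells included 4 of the stem list and 8 others. Edn1, the vasoactive peptide endothelin 1, led with 52.3, 32.1 and 76.4 CPM in the Mki67- Top2a- stem cells, 26.3, 17.2 and 37.8 in those with Mki67 or Top2a, and 19.1, 11.2 and 28.5 in all other kept cells. In each library it was highest in the Mki67- Top2a- stem cells, although the libraries differed among themselves, with Chgb-mCherry lowest in every group. The log2 fold change was 1.55 (SE 0.04) against all other kept cells and 1.0 (SE 0.05) against the cells with Mki67 or Top2a. With cells thinned to 5000 UMIs, Edn1 was counted in 14.2%, 7.43% and 19.0% of the Mki67- Top2a- stem cells (23.8%, 14.1% and 29.2% before thinning), in 8.14%, 5.30% and 13.5% of those with Mki67 or Top2a, and in 1.69%, 3.03% and 9.55% of the Alpi cells. The Alpi cells had median depths of 16102.5, 15562 and 14671 UMIs before thinning.

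Nr2e3, a nuclear receptor best known from photoreceptors, had 76.2, 68.7 and 112 CPM in the Mki67- Top2a- stem cells and 36.4, 35.3 and 54.5 in all other kept cells (1.11, SE 0.04). Ung, the uracil glycosylase that starts repair of uracil in DNA, had 59.1, 65.6 and 69.4 CPM, against 43.6, 41.6 and 48.5 in the cells with Mki67 or Top2a (0.56, SE 0.04) and 34.9, 33.8 and 35.3 in all other kept cells (0.99, SE 0.05). Neither overlapped with all other kept cells, and Ung overlapped with neither set. Ifitm3, an interferon-induced membrane protein, had 473, 450 and 410 CPM against 274, 263 and 240 (0.87). Cyr61, a matrix protein induced by YAP, had 64.3, 37.6 and 70.1 CPM against 38.3, 21.6 and 42.3 (0.84), and Gas6, a ligand of TAM receptors, had 57.5, 52.8 and 106 CPM against 35.0, 35.5 and 63.8 (0.77). For Cyr61 and Gas6 the values of the groups overlapped between libraries. Kcnq1ot1, a long RNA transcribed antisense to Kcnq1 (0.82), and Sorbs2, a cytoskeletal adaptor (0.77), completed the 8; the 4 of the stem list were Gkn3, Cdca7, Cdk6 (0.79) and Clca3b, a secreted protein of the calcium-activated chloride channel regulator family (0.78).

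At the other end stood hormones and mitotic genes. Sst, the hormone somatostatin of D cells, had 2.22, 0.996 and 1.08 CPM in the Mki67- Top2a- stem cells and 92.1, 65.6 and 90 in all other kept cells (-5.74), followed among hormones by Nts (-4.65), Pyy (-4.35) and Gcg (-3.44). The mitotic genes Nusap1 (-4.91), Tpx2 (-4.02), Prc1 (-3.95), Aurkb (-3.89) and Cenpf (-3.43) and the replication-dependent histone genes Hist1h1b (-4.27), Hist1h2ap (-4.21) and Hist1h2ae (-3.50) made up the rest. The histone genes have near-identical copies, so their levels are uncertain. Against other cells that also lacked Mki67 and Top2a, the fold changes of Tpx2 (0.01), Prc1 (0.13), Aurkb (0.56) and Cenpf (0.58) and of the 3 histone genes (0.13 to 0.35) turned positive, whereas the hormones stayed lower.

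The cell cycle lists separated by phase. The 22 G2/M genes were all lower in the Mki67- Top2a- stem cells against all other kept cells (median -3.06) and likewise against the Lgr5 Olfm4 cells with Mki67 or Top2a (median -3.60), which follows closely from choosing cells without Mki67 and Top2a. Against other cells that also lacked Mki67 and Top2a, 13 of the 22 were higher and none lower (median 0.51). Of all tested genes 18.7% were higher and 21.2% lower against all other kept cells. These shares were 17.8% and 18.9% against the cells with Mki67 or Top2a. They were 31.9% and 33.9% against other cells without Mki67 and Top2a. Cdk1, the kinase that drives mitosis, had 25.1, 27.9 and 22.4 CPM against 135, 140 and 141 in all other kept cells. Of the 25 G1/S genes, against all other kept cells 7 were higher and 13 lower (median -0.12), against the cells with Mki67 or Top2a 1, Ung, was higher and 20 were lower (median -0.64), and against other cells without Mki67 and Top2a all 25 were higher (median 1.67). Mcm6, a subunit of the replicative helicase, had 106, 116 and 115 CPM in the Mki67- Top2a- stem cells, close to the 110, 106 and 116 of the cells with Mki67 or Top2a (0.04) and above the 80.3, 78.6 and 83.9 of all other kept cells (0.56).

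Within the G1/S list the distance to the cells with Mki67 or Top2a varied from gene to gene. Of the helicase subunits, Mcm2 (0.02) and Mcm4 (0.05) were not called, like Cdt1, which loads the helicase (0.11), while Mcm3 (-0.21), Mcm7 (-0.30) and Mcm5 (-0.48) were lower. The nucleotide synthesis genes lay further below, with Tyms at -1.28, Tk1 at -1.73 and Rrm2 at -2.44, and Pcna, the sliding clamp, at -0.64. Cdc6, the other helicase loader, had 9.46, 10.5 and 11.5 CPM against 16.2, 15.2 and 18.3 (-0.64), and Hells, a chromatin remodeller, 75.2, 75.4 and 70.2 against 104, 98.4 and 107 (-0.46). Against other cells without Mki67 and Top2a, each of these genes was higher, from 0.75 for Pcna to 2.12 for Mcm4.

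Counted per cell after thinning to 5000 UMIs, the G1/S list summed to medians of 5, 6 and 6 UMIs in the Mki67- Top2a- stem cells of DMSO, Chgb-mCherry and WT, to 9 in each library in the cells with Mki67 or Top2a, and to 1 in each library in the other cells without them. At least 1 G1/S UMI was counted in 95.2%, 96.1% and 95.8% of the Mki67- Top2a- stem cells (98.9%, 99.2% and 99.6% before thinning), against 54.2%, 60.6% and 56.1% of the Alpi cells. The 10th and 90th percentiles were 1 and 12 UMIs in DMSO and WT and 1 and 13 in Chgb-mCherry, so single cells ran from almost no G1/S transcripts to more than the median of the cells with Mki67 or Top2a. The G2/M list, without Mki67 and Top2a, had a median of 2 UMIs in each library of the Mki67- Top2a- stem cells, 13, 14 and 14 in those with Mki67 or Top2a, and 1 in each library of the other cells without them. At least 1 such UMI was counted in 80.0%, 83.8% and 82.1% of the Mki67- Top2a- stem cells, 64.8%, 64.0% and 66.2% of the other cells without Mki67 and Top2a, and 50.8%, 49.7% and 55.4% of the Alpi cells. The Alpi cells were not limited to cells without Mki67 and Top2a and include some that are rich in G2/M transcripts (means of 1.91, 3.61 and 2.75 UMIs, against 2.58, 2.73 and 2.49 in the Mki67- Top2a- stem cells), so for cell cycle genes their share is not a measure of free RNA alone. Single cells reached 27, 37 and 28 G2/M UMIs although no Mki67 or Top2a was counted in them. Thinning left out 52 of the 2303 cells, which had fewer than 5000 UMIs.

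**Figure D2:**
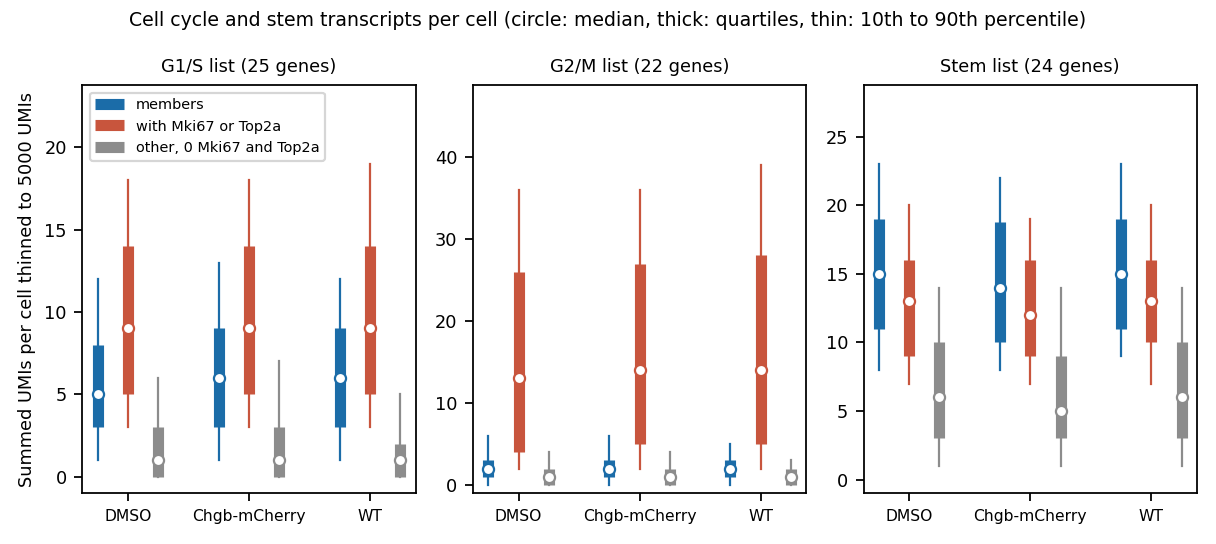
Summed UMIs per cell of the G1/S, G2/M and stem lists after thinning every cell to 5000 UMIs, by library, for Mki67- Top2a- stem cells (members), Lgr5 Olfm4 cells with Mki67 or Top2a, and other kept cells with neither; circles are medians, thick bars quartiles and thin bars the 10th to 90th percentile. In the G1/S panel the Mki67- Top2a- stem cells lie at medians of 5 to 6, between 9 and 1, in the G2/M panel they lie near the other cells at 2, and in the stem panel they are highest at 14 to 15.

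Single genes were counted as follows. With cells thinned to 5000 UMIs, Mcm6 was counted in 35.4%, 39.1% and 39.5% of the Mki67- Top2a- stem cells (64.3%, 66.9% and 70.2% before thinning), in 39.1%, 38.0% and 42.3% of those with Mki67 or Top2a and in 3.39%, 4.85% and 5.73% of the Alpi cells. Ung was counted in 24.5%, 29.3% and 25.9% against 19.1%, 18.6% and 19.8% of those with Mki67 or Top2a, and in 1.13%, 3.03% and 1.91% of the Alpi cells. The share for Pcna (23.0%, 20.7% and 21.2%) lay near that of the Alpi cells (19.8%, 21.8% and 17.8%) and above that of cells with at least 5 UMIs of the hormone cell gene Chga and none of Lgr5 (7.78%, 7.92% and 10.4%), so the Alpi and Chga cells give different backgrounds for it. For Cdk1 the shares were 10.0%, 12.2% and 9.07%, against 4.52%, 9.70% and 7.01% of the Alpi cells.

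Of 18 genes for D-type cyclins, inhibitors of cyclin-dependent kinases and related brakes on division, 4 were higher and 10 lower than in all other kept cells (median -0.31). Of all tested genes 18.7% were higher and 21.2% lower there. Against the cells with Mki67 or Top2a 6 of 17 were higher and 5 lower (median 0.03), beside 17.8% and 18.9% of all tested genes. Cdkn1a, the p53-induced inhibitor p21, had 54.7, 49.4 and 64.1 CPM in the Mki67- Top2a- stem cells and 135, 136 and 182 in all other kept cells (-1.34), and was not called against the cells with Mki67 or Top2a (0.09). Cdkn1b, the inhibitor p27, was lower against both sets (-0.31 and -0.29). Cdkn1c, the inhibitor p57, was lower than in all other kept cells (-0.73) and higher than in the cells with Mki67 or Top2a (0.30). The antiproliferative genes Btg1 (0.27) and Btg2 (0.33) were likewise higher than in the cells with Mki67 or Top2a. Ribosome biogenesis genes were higher than in all other kept cells for 12 of 15 (median 0.20), among them Npm1 (0.40) and Fbl (0.32), both of the nucleolus, while 8 of 15 were lower and 1 higher than in the cells with Mki67 or Top2a (median -0.11).

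A few promoters are shown here because a motif of G1/S genes also stood in 1 stem list promoter. The motif TTTCCCGC, a form of the E2F site through which G1/S genes are switched on, was searched on both strands in the 250 bases upstream of the first listed start of each gene (RefSeq, GRCm38.p6). It was found in 251 of 27025 promoters (0.929%), in 3 of the 21 G1/S genes with a sequence (Cdc6, Hells and Mcm7) and in 1 of 16 stem genes with a sequence, Cdca7, whose protein recruits Hells. Sequences run 5′ to 3′ on the strand of the gene, with the motif, or its reverse complement, in capitals. Cdca7 (chr2:72475969-72476218), Hells (chr19:38930740-38930989) and Cdc6 (chr11:98907901-98908150) lie on the plus strand and Mcm7 (chr5:138171884-138172133) on the minus strand.
Cdca7: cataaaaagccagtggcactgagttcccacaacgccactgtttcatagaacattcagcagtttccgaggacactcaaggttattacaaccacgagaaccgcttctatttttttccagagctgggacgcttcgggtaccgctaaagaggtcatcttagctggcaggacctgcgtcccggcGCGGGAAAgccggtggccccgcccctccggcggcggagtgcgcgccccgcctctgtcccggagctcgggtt
Hells: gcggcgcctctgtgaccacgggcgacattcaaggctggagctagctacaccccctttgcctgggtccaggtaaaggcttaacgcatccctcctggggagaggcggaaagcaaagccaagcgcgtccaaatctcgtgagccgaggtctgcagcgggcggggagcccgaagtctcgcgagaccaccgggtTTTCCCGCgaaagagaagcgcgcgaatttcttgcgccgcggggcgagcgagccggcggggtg
Cdc6: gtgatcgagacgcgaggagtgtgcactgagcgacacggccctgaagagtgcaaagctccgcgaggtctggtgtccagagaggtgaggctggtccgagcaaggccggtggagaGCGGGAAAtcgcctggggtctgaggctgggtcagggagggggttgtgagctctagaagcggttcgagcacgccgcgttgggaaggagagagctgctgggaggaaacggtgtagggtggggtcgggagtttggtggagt
Mcm7: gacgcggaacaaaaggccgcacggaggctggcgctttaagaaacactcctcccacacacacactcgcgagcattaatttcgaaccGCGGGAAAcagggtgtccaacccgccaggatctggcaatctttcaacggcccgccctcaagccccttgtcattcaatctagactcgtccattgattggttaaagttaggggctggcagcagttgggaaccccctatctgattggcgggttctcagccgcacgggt
The motif began 71, 62, 138 and 165 bases upstream of the start in Cdca7, Hells, Cdc6 and Mcm7. A second E2F form, TTTGGCGC, stood in 118 promoters (0.437%), among them Mcm5 and Mcm6.

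Olfm4 itself was read for the motif TGGGAA, the core of sites for Rbpj, the DNA-binding partner of Notch, since Olfm4 defines the cells and Notch genes were described above. Its promoter lies at chr14:80000052-80000301 on the plus strand, and the motif is in capitals.
Olfm4: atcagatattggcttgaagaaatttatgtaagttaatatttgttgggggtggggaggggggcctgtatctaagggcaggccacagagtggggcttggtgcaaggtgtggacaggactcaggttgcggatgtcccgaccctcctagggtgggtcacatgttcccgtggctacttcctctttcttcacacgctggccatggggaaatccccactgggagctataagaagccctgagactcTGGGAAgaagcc
The motif nearest the start lay 12 bases upstream of it. TGGGAA is short and stood in 5817 of the 27025 promoters (21.5%), in 4 of 16 stem genes (Cd44, Cdca7, Olfm4 and Prom1) and in 6 of 21 G1/S genes. CTTTGA, a core of sites for the Wnt factors of the TCF family, stood in 3797 promoters (14.05%), in none of the 16 stem genes and in 2 of 21 G1/S genes. These matches describe letters in a window and were not tested as binding sites; no motif searched contains another.

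Markers of the differentiated cells were lower than in all other kept cells. Of the enterocyte list 14 of 16 tested genes were lower (median -1.61), of the Paneth list 13 of 13 (median -1.86), of the goblet list 11 of 11 (median -1.78), of the enteroendocrine list 18 of 18 (median -1.93) and of the tuft list 11 of 12 (median -1.66), and no gene of these lists was higher. Alpi, the brush border alkaline phosphatase, had 6.05, 6.86 and 6.45 CPM in the Mki67- Top2a- stem cells and 23.6, 22.9 and 24.5 in the other cells. Muc2, the gel-forming mucin of goblet cells, stood at 10.7, 8.30 and 12.7 CPM. Of 12 injury and fetal-like genes 7 were tested, and 5 were lower and none higher (median -1.60), Ly6a among the lower ones (-1.64). Cyr61 was listed under its other name, Ccn1, and so was not counted with the list. It went the other way, with 64.3, 37.6 and 70.1 CPM against 38.3, 21.6 and 42.3 in the other cells. Of 12 markers of cells outside the epithelium, 5 were tested, and 1 was higher and 1 lower (median 0.05). Over all tested genes 18.7% were higher and 21.2% lower. The lower marker was Vim of mesenchymal cells (-1.73), and Ptprc of blood cells had 0 UMIs in each library. Against the Lgr5 Olfm4 cells with Mki67 or Top2a, 2 of 3 tested markers were higher and none lower (median 0.66).

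Against the Lgr5 Olfm4 cells with Mki67 or Top2a the medians of these 5 lists were above that of all tested genes (0.03). Of all tested genes 17.8% were higher and 18.9% lower. The tuft genes called higher and the goblet genes called lower, 2 of 11 each, lay near those shares. In the enteroendocrine list 10 of 18 were higher and 3 lower (median 0.51), in the enterocyte list 9 of 15 and 1 (0.18), in the Paneth list 4 of 12 and none (0.22), in the goblet list 5 of 11 and 2 (0.12) and in the tuft list 2 of 11 and none (0.37). The hormones Gip (2.43, SE 0.35) and Cck (0.97) were among the 10 highest genes of that comparison, with Nupr1, a stress-induced chromatin protein (102, 102 and 104 CPM against 54.1, 56.8 and 70.0; 0.80), the secreted ribonuclease Rnase4 (106, 108 and 96.1 against 66.8, 60.8 and 56.3; 0.78), Fam13a (0.68), Hist1h2bc (0.66), the kinase inhibitor Camk2n1 (0.57), Ogt, which adds N-acetylglucosamine to proteins (144, 154 and 118 against 97.0, 105 and 83.2; 0.57), Edn1 and Ung. The call of Gip was lost under DESeq2 (2.20), and without the 5% of cells richest in UMIs, an alternative chosen after the data were seen, Cck changed sign to -0.63. The 10 lowest genes were Nusap1 (-5.54), Hmmr, Hist1h1b, Hist1h2ap, Esco2, Kif11, Tpx2, Aurkb, Prc1 and Aurka (-4.37), all of mitosis or S phase.

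**Figure D3:**
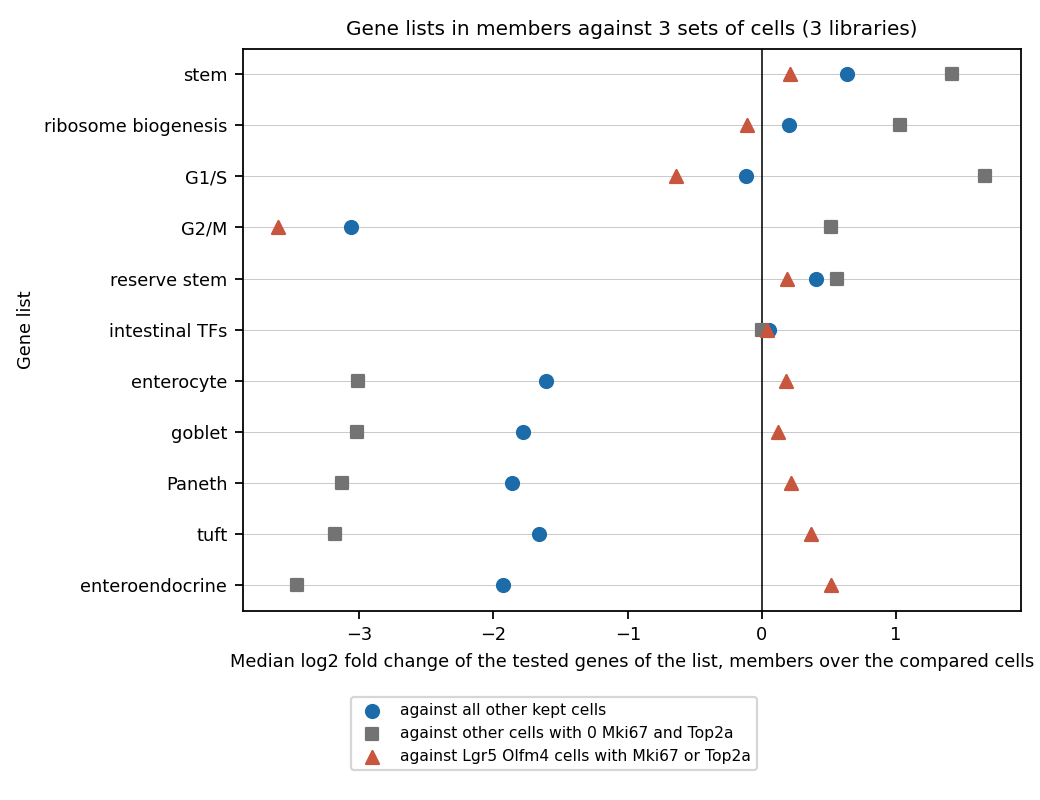
Median log2 fold change of 11 gene lists in Mki67- Top2a- stem cells (members) against all other kept cells (circles), other kept cells without Mki67 and Top2a (squares) and Lgr5 Olfm4 cells with Mki67 or Top2a (triangles). The G1/S list lies at -0.12, 1.67 and -0.64 in these 3 comparisons, and the 5 lists of differentiated cells lie at -1.61 or lower against both sets of other cells and above 0 against the cells with Mki67 or Top2a.

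The UMIs of Cck and Chgb sat mostly in few cells, while those of other hormones did so less or in some libraries. The 1% of cells richest in a gene were counted for each gene. The richest 1% of Mki67- Top2a- stem cells, 9 cells in DMSO and 8 each in Chgb-mCherry and WT, held 93.8%, 94.8% and 86.0% of all Cck UMIs, and 1 cell in each library held 1613 of 1756, 2095 of 2267 and 783 of 945. Gip had 87.6%, 67.9% and 99.0% in the richest 1%, and in WT 1 cell held 2775 of 2809 UMIs. Chgb, a granin of hormone granules, had 91.8%, 91.5% and 92.9% there. Most UMIs of these 3 genes thus came from a few cells. Gcg had 36.0%, 54.0% and 91.6% in the richest 1% and was counted in 9.43%, 9.34% and 22.3% of the Mki67- Top2a- stem cells. Nts had 47.4%, 32.0% and 70.8% there and Pyy 50.0%, 53.3% and 64.4%, each on few UMIs in DMSO and Chgb-mCherry. Whether the richest cells were doublets was not tested.

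Paneth, enterocyte and goblet genes were less uniform. The defensin Defa24 had 81.4%, 32.2% and 70.1% of its UMIs in the richest 1% and a median of 2 UMIs per cell in each library. After thinning it was counted in 62.1%, 61.1% and 58.0% of the Mki67- Top2a- stem cells (90.2%, 87.1% and 87.5% before). In the Alpi cells the shares were 49.7%, 60.0% and 52.2%. The part of free RNA in these counts was not tested. Fabp1, a fatty acid carrier of enterocytes, had 75%, 77.1% and 93.2% in the richest 1%, Lyz1, Paneth lysozyme, 69.4%, 48.2% and 33.9%, and Fcgbp, a goblet cell mucus protein, 55.4%, 46.5% and 46.1%.

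**Figure D4:**
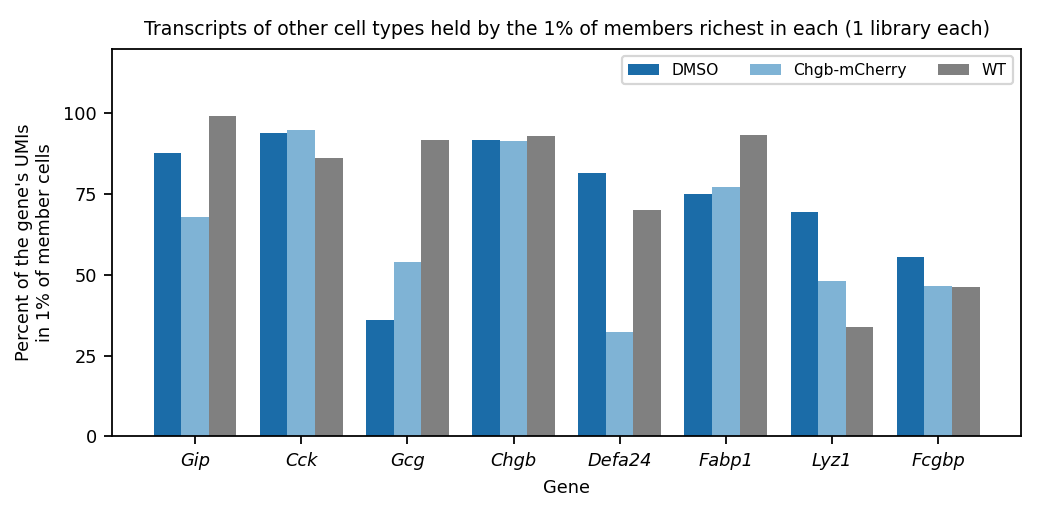
Percent of the UMIs of 8 marker genes of differentiated cells, summed over Mki67- Top2a- stem cells (members), that was held by the richest 1% of these cells, by library. Cck and Chgb lie between 86.0% and 94.8% in each library, while Lyz1 and Fcgbp lie between 33.9% and 69.4%.

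Within the Mki67- Top2a- stem cells themselves, lists and genes varied together only weakly. Over the cells of 1 library (848, 686 and 717 cells thinned to 5000 UMIs), the rank correlation of Lgr5 with Olfm4 was 0.15, 0.15 and 0.08, that of the G1/S list with ribosome biogenesis 0.26, 0.29 and 0.27, and that of the stem list with the G2/M list -0.15, -0.11 and -0.10. These cells share a library and the counts are sparse, so no finding is drawn. Stem transcripts per cell did not follow the G1/S list, at -0.02, -0.06 and -0.00. Over all kept control cells thinned likewise, the genes most like Lgr5 among 7244 were Olfm4 (mean rank correlation over 3 libraries 0.30), Slc12a2 (0.28), Npm1 (0.23), Cps1, a urea cycle enzyme (0.23), Rpl3 (0.23), Clca3b (0.22), Rpl12 (0.22), Rpsa (0.21), Stmn1 (0.21) and Rps2 (0.20). Smoc2 was at rank 22 (0.18) and Ascl2 at rank 165 (0.10).

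In the Mki67- Top2a- stem cells, the stem genes with at least 100 UMIs over a pair of control libraries stayed within 2-fold. Of 21 stem list genes with at least 100 UMIs over a pair, none differed by 2-fold in any of the 3 pairs, with median log2 ratios of 0.05 for DMSO over Chgb-mCherry, -0.10 for Chgb-mCherry over WT and -0.04 for DMSO over WT. Gkn3 was 1.48-fold higher in Chgb-mCherry than in WT, and Igfbp4, a binding protein of insulin-like growth factors, was at 38.0 CPM in DMSO and 65.7 in WT (ratio 0.579, exact 95% interval 0.514 to 0.652). Over all genes with at least 100 UMIs, 23 of 9146 were at least 2-fold higher (0.251%) and 1 lower (0.0109%) in DMSO than in Chgb-mCherry. In Chgb-mCherry set against WT 31 of 9109 were higher (0.34%) and 88 lower (0.966%), and in DMSO set against WT 51 of 9356 were higher (0.545%) and 64 lower (0.684%). With 1 library per condition none of this could be tested.

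Some wide gaps between the libraries were present outside the stem cells too. Hoxb9, a homeobox gene of posterior position, had 1.54, 1.77 and 42.3 CPM in the Mki67- Top2a- stem cells of DMSO, Chgb-mCherry and WT (Chgb-mCherry over WT 0.0419, 0.0237 to 0.0687), and 1.75, 2.62 and 48.2 in all other kept cells. Hoxb8 had 2.13, 2.10 and 38.2 CPM and Hoxb7 2.22, 1.77 and 30.8, so among the 3 controls these homeobox genes were high in WT. In the Isx-9 library, of reporter genotype, all other kept cells held 12.3, 38.1 and 17.4 CPM of Hoxb9, Hoxb8 and Hoxb7. Ccl28, a chemokine of mucosal epithelium, was the reverse, with 30.5, 34.1 and 10.4 CPM (Chgb-mCherry over WT 3.28, 2.64 to 4.10) and 32.3, 33.6 and 11.2 in all other kept cells. Bex1 was high in WT among the 3 controls, with 21.1, 14.1 and 162 CPM, and 17.3, 16.7 and 111 in all other kept cells. Eif3j2 (1.11, 1.22 and 29.4 CPM) and Rnaset2b (14.6, 15.2 and 3.94) have near-identical copies and are uncertain. Genotype, culture and library cannot be told apart here.

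Other gaps were narrower or absent in all other kept cells. Defa22, a defensin, had 133, 4.98 and 18.6 CPM in the Mki67- Top2a- stem cells (DMSO over Chgb-mCherry 26.8, 19.9 to 36.9), against 127, 74.2 and 178 in all other kept cells, and shares reads with related defensins. Ghrl, the hormone ghrelin, had 206, 107 and 28.8 CPM, against 256, 224 and 243 in all other kept cells. Gcg, proglucagon, had 9.72, 13.9 and 171 CPM, against 238, 403 and 797 in all other kept cells. Reg1, an antimicrobial lectin, had 2.39, 25.5 and 1.70 CPM, against 147, 74.3 and 69.7 in all other kept cells. In Chgb-mCherry 1 cell held 218 of the 230 Reg1 UMIs, and in WT 1 cell held 1727 of the 1905 Gcg UMIs. The share held by the richest cells was not counted for Defa22 and Ghrl. For the related defensin Defa24 the richest 1% held 81.4% of the UMIs in DMSO and 32.2% in Chgb-mCherry. Its median was 2 UMIs per cell in both. A few cells can therefore carry such gaps, and the intervals cover counting error only. Edn1 was 0.42 of the WT level in Chgb-mCherry (0.366 to 0.481) and Gas6 0.497.

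After 6 days of Isx-9, 518 of 10016 kept cells met the same thresholds (5.17%, 4.75% to 5.62%), against 870 of 8969 in DMSO (9.70%, 9.10% to 10.3%). Kept cells with at least 2 UMIs of Lgr5 and none of Mki67 and Top2a, but 0 to 4 of Olfm4, numbered 2479 with Isx-9 and 403 with DMSO. The lower share thus depends on the Olfm4 threshold and is not a measure of fewer Lgr5 cells. In the Isx-9 library the doublet caller marked 893 kept cells, 81 of them among the 518 (15.6%); how reliable these calls were was not tested. The cells that met the rule there differed widely from those in DMSO: 1151 of 9677 genes with at least 100 UMIs were at least 2-fold higher than in the DMSO cells (11.9%) and 286 lower (2.96%). Without the cells called doublets the counts were 812 and 312. Olfm4 itself was at 896 CPM with Isx-9 and 4282 with DMSO, and Lgr5 at 364 and 283.

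Of 23 stem list genes with enough UMIs, 5 were at least 2-fold higher with Isx-9 and 1 lower, with a median log2 ratio of 0.34 beside 0.05 over all genes. Smoc2 stood at 672 CPM with Isx-9 and 255 with DMSO (2.63-fold), Igfbp4 at 349 and 38.0 (9.17-fold), Rnf43 at 121 and 52.8 (2.30-fold), Tnfrsf19 at 23.1 and 1.79 (12.9-fold) and Fstl1 at 90.5 and 1.11 (81.7-fold, 47.4 to 154). All other kept cells moved the same way, with Smoc2 at 432 CPM with Isx-9 and 195 with DMSO, Igfbp4 at 280 and 25.9, Rnf43 at 81.6 and 32.4, Tnfrsf19 at 14.0 and 1.20 and Fstl1 at 67.8 and 0.650, so these rises were not particular to the Lgr5 Olfm4 cells. The potassium channel subunit Kcne3 stood at 25.2 and 77.2 (0.326-fold). Edn1, the leading gene of the control cells, stood at 19.0 CPM with Isx-9 and 52.3 with DMSO (0.364-fold, 0.303 to 0.436). In all other kept cells Kcne3 was lower with Isx-9 too (14.1 and 59.6), while Edn1 differed little (16.1 and 19.1). The log2 ratio of the chosen cells over the other cells for Edn1 was 0.24 with Isx-9 (-0.01 to 0.49) and 1.45 with DMSO (1.32 to 1.58).

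Outside the stem list the widest ratios were those of Igfbp2, another binding protein of insulin-like growth factors, at 1259 CPM with Isx-9 and 1.19 with DMSO, of Bex4 (372 and 1.11), the small heat shock protein Hspb1 (215 and 0.853), Tesc (186 and 0.853), Ifitm1 (310 and 1.45) and the antimicrobial lectin Reg3b (141 and 1.11). At the low end stood the defensins Defa30 (3.58 and 379), Defa24 (13.4 and 1396) and Defa21 (1.53 and 56.3), which share reads with one another, then Gip (5.11 and 124), Phgr1 (16.0 and 381) and the carboxylesterase Ces2a (2.68 and 59.0). All other kept cells went the same way for each of these genes. They held 1600 CPM of Igfbp2 with Isx-9 and 8.79 with DMSO, 197 and 0.165 of Hspb1, 29.8 and 535 of Phgr1 and 2.95 and 165 of Ces2a. The gap was narrower there for several, among them Reg3b (242 and 17.7), Defa21 (22.7 and 97.2) and Gip (125 and 577). Few cells carried some of the DMSO levels of the chosen cells. Of the 870 cells, 9 held 81.4% of the Defa24 UMIs and 9 held 87.6% of the Gip UMIs. Per chosen cell, the median of Defa24 was 2 UMIs in DMSO and 0 with Isx-9, and that of Gip was 0 in both. Chgb stood at 1681 CPM with Isx-9 and 162 with DMSO and Neurog3 at 192 and 1.79. In the Isx-9 library only 3 cells met the Alpi criterion, so no share of free RNA could be given, and its part in these levels was not tested.

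The sorted cells gave a measurement that the rule had not used. In bulk RNA-seq of Lgr5-EGFP cells after 6 hours, with 2 libraries per treatment and 18909542 to 19487264 counts each, 4755 of 17418 tested genes rose with Isx-9 (27.3%) and 3488 fell (20%) against DMSO (quasi-likelihood test of edgeR, p adjusted by Benjamini-Hochberg, threshold 0.05), so 57.7% of the calls were rises. Scaled by library size alone, 5469 rose and 2106 fell, which made 72.2% rises, as the median of all genes moved by 0.12. In bulk, fewer cells of a type and less RNA per cell cannot be told apart. Of the 26 stem list genes, Lgr5 and Olfm4 included, 3 rose and 17 fell (median -0.32 beside 0.02 over all tested genes). Of the 12 genes with the largest fold changes in the control Mki67- Top2a- stem cells against all other kept cells, none rose and 6 fell (median -0.30).

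Edn1 fell the most of these 12. It had 58.2 and 67.9 CPM in the Isx-9 libraries and 196 and 148 in the DMSO libraries, with no overlap (log2 fold change -1.44, SE 0.13, adjusted p = 7.13e-06 by Benjamini-Hochberg in edgeR's quasi-likelihood test). Cdca7 had 188 and 179 CPM with Isx-9 and 334 and 315 with DMSO (-0.81, SE 0.07, adjusted p = 8.74e-06 in the same edgeR test). Ung had 39.3 and 34.8 CPM with Isx-9 and 52.2 and 51.9 with DMSO (-0.48, adjusted p = 0.00359), but its call was lost without Isx-9 replicate 2 (-0.37). Cdk6 fell by 0.47 on the log2 scale.

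Other stem genes fell within these 6 hours as well. Slc14a1, a urea transporter, had 11.0 and 13.6 CPM with Isx-9 and 28.5 and 32.3 with DMSO (-1.30, SE 0.16, adjusted p = 6.9e-05 by Benjamini-Hochberg in edgeR's quasi-likelihood test). Slc12a2 had 1340 and 1304 CPM against 1863 and 2103 (-0.58), Olfm4 4751 and 3638 against 6072 and 5915 (-0.51) and Smoc2 442 and 422 against 584 and 568 (-0.40). Rgmb (-0.65) and Rnf43 (-0.51) fell too. In each of these the Isx-9 libraries lay below both DMSO libraries. Lgr5, the gene used to sort the cells, had 310 and 320 CPM with Isx-9 and 378 and 342 with DMSO and was not called (-0.18, adjusted p = 0.0715 in edgeR's quasi-likelihood test), though it was called without DMSO replicate 2 (-0.26). The falls of Ascl2, Axin2, Clca3b, Ifitm3, Kcne3 and Soat1 were lost when single libraries were left out and when library size alone was used, and that of Kcnq1, whose reads in this unstranded kit cannot be told from those of Kcnq1ot1, was lost when library size alone was used.

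The genes that rose were Fstl1, with 57.4 and 40.8 CPM in the Isx-9 libraries and 2.80 and 2.65 in the DMSO libraries (4.18, SE 0.21, adjusted p = 1.5e-07 by Benjamini-Hochberg in edgeR's quasi-likelihood test), Tnfrsf19 (0.67), whose call was lost without Isx-9 replicate 1 (0.37) or DMSO replicate 2 (0.42), and Cd44, a hyaluronan receptor and Wnt target (0.36). Igfbp4 had 222 and 212 CPM with Isx-9 and 231 and 193 with DMSO (0.04) and was not called. Side by side with the 6-day cells, Edn1 was lower and Fstl1 higher with Isx-9 in both, whereas Smoc2 fell in the sorted cells and was 2.63-fold higher in the 6-day cells, and Rnf43 fell and was 2.30-fold higher. The measurements differ in time, organoid line, cell choice and assay, and the difference was not tested.

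**Figure D5:**
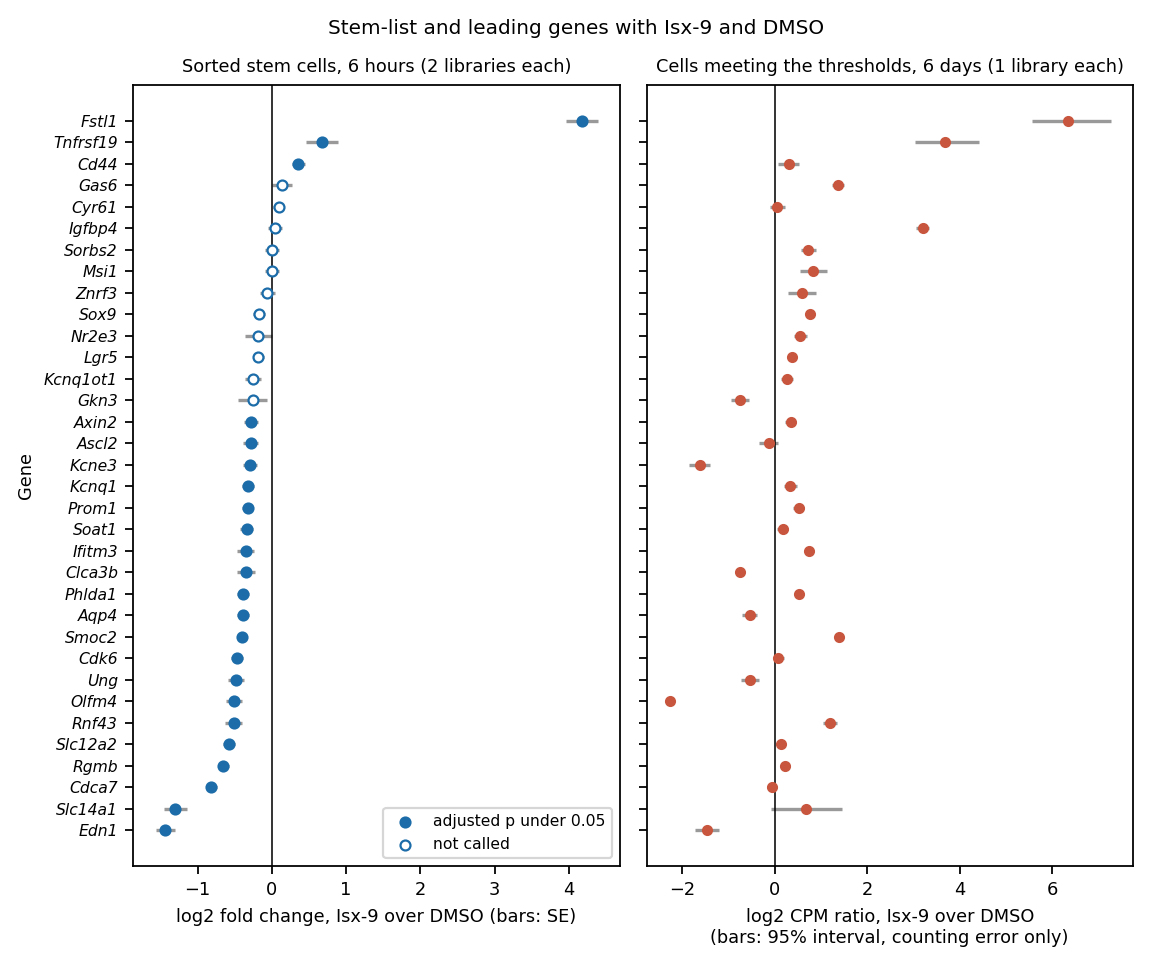
Left, log2 fold change of stem list and leading genes in sorted Lgr5-EGFP cells after 6 hours of Isx-9 over DMSO, with standard errors (2 libraries each). Right, log2 ratio of CPM after 6 days of Isx-9 over DMSO in cells that met the Lgr5, Olfm4, Mki67 and Top2a thresholds, with exact 95% counting intervals (1 library each); Fstl1 is on the right in both panels and Edn1 on the left in both, while Smoc2 and Rnf43 change side.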

How the data were processed

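The deposited single-cell matrices are raw UMI counts; the submitters' processing notes name Cell Ranger 3.1.0 and Seurat 3.1.5 for them. The authors' bulk files are raw read counts per gene, for which those notes name HTSeq 0.12.4, Trim Galore 0.6.4, GRCm38 and HISAT2, whose version is not given in the sources used here. RNA came from RNeasy columns and the NEBNext Ultra kit, per the labels. ATAC-seq samples were not analysed here.

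The cells and gene lists were chosen with earlier results of these data known. Cells were filtered on genes, UMIs and mitochondrial share as given in the report. Counts were summed per library and class over 16641 genes common to the control matrices, filtered with filterByExpr, scaled by TMM and tested with edgeR 4.0.16 (quasi-likelihood, library as block, R 4.3.3, limma 3.58.1), adjusted by Benjamini-Hochberg over all tested genes at 0.05. Bulk CPM are TMM-scaled, and bulk libraries were compared 2 against 2 without a block; the pairing check is given with the alternatives. DESeq2 1.42.0, other scalings, thinning, thresholds and left-out libraries were alternatives. Python 3.11.15, numpy 2.4.6, scipy 1.17.1, pandas 2.3.3, scanpy 1.11.5 (Scrublet) and matplotlib 3.10.9 were used. Between libraries, ratios of CPM carry exact intervals that cover counting error only. Thinning drew 5000 UMIs from each cell. On simulated data with 200 genes changed by 2-fold, 81.0% were recovered against all other cells with 5 false calls, 89.5% against cells with Mki67 or Top2a with 8, and 82.0% in bulk with 9.

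Named genes were those with the 12 highest and 12 lowest fold changes against all other kept cells (10 and 10 against the cells with Mki67 or Top2a) among called genes with at least 50 CPM and the same direction in 3 libraries, without rule genes, mitochondrial, Gm and Rik genes; the 6 highest and 6 lowest ratios between libraries; the stem list; and up to 4 genes of each other list. Not every gene so named is printed, a few results are not reported here, and other list members are printed for their role.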

Additional observations from a re-analysis of the deposited data

Results flagged for a closer look

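Sorbs2, a cytoskeletal adaptor protein, was higher in the Mki67- Top2a- stem cells than in the other cells of every control library and lower in the Isx-9 library. In the Isx-9 library the cells that met the thresholds held 91.0 CPM and the other cells 117, a log2 ratio of -0.367 with an exact 95% interval of -0.48 to -0.26. In DMSO, Chgb-mCherry and WT the log2 ratio was 0.68 (0.56 to 0.81), 0.76 (0.62 to 0.89) and 0.61 (0.49 to 0.72). The intervals cover counting error only. Each library is 1 sample, so the difference between treatments was not tested.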

How the results depend on the processing

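Against all other kept cells, 509 of 528 single-gene values kept their direction and side of the threshold. The count of higher genes was 2681, against 1734 with DESeq2, 1463 without the library block and 4208 (2125 shared) with other cells limited to 0 Mki67 and Top2a, chosen after seeing the data; the count of lower genes was 3033, against 1932 without the block. In the limited set the signs turned for Hist1h1b (0.34), Hist1h2ap (0.35), Tpx2 (0.00905), Prc1 (0.13), Aurkb (0.56), Hist1h2ae (0.13) and Cenpf (0.58), as its cells lack Mki67 and Top2a too. Leaving out 1 library gave 1957 to 2306 higher and 2469 to 2741 lower genes.

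Against the cells with Mki67 or Top2a, 443 of 483 single-gene values were unchanged in call. Higher genes numbered 2278, against 888 with DESeq2, 1282 thinned and 912 without the library block; lower genes numbered 2423, against 1505, 1517 and 1528. Without the top 5% of cells by UMIs, chosen after seeing the data, Cck was at -0.63. Leaving out 1 library gave 1562 to 1871 higher and 2001 to 2236 lower genes.

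In bulk, 269 of 306 single-gene values were unchanged in call; library size alone left 2106 of 3488 lower genes, and leaving out 1 library gave 3599 to 4536 higher and 2062 (without Isx-9 replicate 1) to 3090 lower. Deviations of same-numbered replicates correlated at 0.0128 over 11995 genes, so no replicate effect shared by the treatments was seen. With 2 libraries per treatment this cannot show whether same-numbered libraries came from the same culture. With a replicate block 4723 genes were higher and 3408 lower.

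The shares in DMSO, Chgb-mCherry and WT moved to 12.5%, 9.73% and 9.86% with Lgr5 at least 1, to 6.6%, 4.98% and 6.34% with Lgr5 at least 3, to 8.84%, 6.34% and 7.47% with Olfm4 at least 10, and to 6.19%, 4.74% and 5.56% after thinning. Thinned to 3000 UMIs, 89.4%, 90.9% and 89.2% of the cells had a G1/S UMI and 66.3%, 68.8% and 65.2% a G2/M UMI. Thinned to 5000, genes past 2-fold numbered 13 higher and 0 lower for DMSO over Chgb-mCherry, 18 and 34 for Chgb-mCherry over WT, 20 and 25 for DMSO over WT, and 408 and 202 (of 6288 genes, against 1151 and 286 of 9677) for Isx-9 over DMSO; Phlda1 turned to 1.02 for DMSO over WT. Over all alternatives, 117 of 132 single-gene ratios of Isx-9 over DMSO stayed within the counting interval of the ratio as reported. Where no cause is named, the cause was not tested. Depth limits what can be said of genes counted in few cells, and 1 library per condition leaves every difference between libraries without a test.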

Other observations

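Of 18 transcription factors that define the intestine, 8 were higher and 3 lower in the Mki67- Top2a- stem cells than in all other kept cells, where 18.7% and 21.2% of all tested genes were (the list's median log2 fold change 0.05, quasi-likelihood test of edgeR, p adjusted by Benjamini-Hochberg, threshold 0.05), among them Isx, an intestinal homeobox gene, with 92.3, 94.2 and 105 CPM in DMSO, Chgb-mCherry and WT against 82.8, 85.4 and 85.9 in the other cells (0.29). Gata5 differed by 0.46 and Foxa3 by 0.34, while Klf4, a factor of differentiated cells, was lower with 18.6, 20 and 41.8 CPM against 39.4, 34.8 and 70.6 (-0.78). Klf4 and Onecut2 (-0.30) varied between libraries more than between the classes of cells.

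Of 16 glycolysis and pyruvate genes, none was higher and 8 were lower than in all other kept cells (median -0.05), beside 18.7% and 21.2% of all tested genes, with Hk1, a hexokinase, at -0.86 and Pfkp, a phosphofructokinase, at -0.79. Of 15 immediate early genes, 4 were higher and 5 lower (median 0.01), beside 18.7% and 21.2% of all tested genes, with Jun at 0.34 and Junb at -0.36.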
